A study of Papio anubis with 40 samples.

Results

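The Gly-GCC 5′-halves described here are the 228 serum tRNA fragments of 25 to 36 nt that begin with the 20 bases of the most counted Gly-GCC 5′ end, out of 58587 distinct fragments. They were chosen by their identifiers, which encode the sequence, and not by any measured level. Together they held 4033827 of 130892201 counts, or 3.08%. Their anticodon was read from longer fragments with the same start: of the counts at 35 nt and more, 99.5% had GCC at bases 33 to 35, the anticodon of a glycine tRNA. RefSeq annotates 12 Gly-GCC tRNA genes in the olive baboon assembly Panubis1.0, and the deposited table does not say from which of them a fragment came.

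Serum of 8 olive baboons (Papio anubis) was drawn at months 3, 6, 9 and 15 after endometriosis was modelled by inoculation of the peritoneal cavity with menstrual tissue, and at month 0, before it, as the baseline. The labels give the same 8 animals at each of the 5 time points, 40 libraries in all, each from 0.5 mL of serum. All draws are labelled as without treatment, the sample titles name endometriosis at every draw including month 0, and the labels give no strain, genotype or age. No group of animals without inoculation is among the samples. A difference between months therefore cannot be told apart from age or from anything else that changed between draws.

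Transfer RNAs carry amino acids to the ribosome, and each folds into arms that end in loops, with the anticodon in one of them. Ribonucleases such as angiogenin cut tRNAs in the anticodon loop and leave a 5′-half and a 3′-half. The 5′-halves of glycine tRNAs are among the abundant small RNAs of mammalian serum and, in the mouse, of sperm. In serum, fewer cells releasing a fragment, less of it per cell and faster loss of it cannot be told apart.

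The sequences below show where the 5′-halves end. In each, capitals mark the bases of the anticodon loop, which begins at base 31 after the stem bases 26 to 30. The first is the shortest member, the next is the most counted, and the others reach into the loop.
tRF-25-P4R8YP9LON: gcatgggtggttcagtggtagaatt
tRF-30-P4R8YP9LON4V: gcatgggtggttcagtggtagaattctcgc
tRF-32-P4R8YP9LON4V3: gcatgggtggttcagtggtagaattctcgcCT
tRF-34-P4R8YP9LON4VHM: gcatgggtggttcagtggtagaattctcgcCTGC
tRF-36-P4R8YP9LON4VN1B: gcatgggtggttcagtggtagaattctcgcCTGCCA

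A second Gly-GCC start, not among the members, differs at a single base, G5T, where positions count from 1 at the 5′ end, the member's base stands first and the other start's base last. Its anticodon, too, was read from longer fragments: 99.7% of their counts had GCC, and 3 counts had CCC. Fragments that end before the anticodon do not show it, so which tRNA each of them came from was not read. Capitals mark the base of G5T in the pair of 30 nt fragments.
tRF-30-P4R8YP9LON4V: gcatGggtggttcagtggtagaattctcgc
tRF-30-PNR8YP9LON4V: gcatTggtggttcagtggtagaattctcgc

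Library totals ran from 198840 to 6245450 counts, and 35 to 147 members were found per library. Levels are given as CPM, the count scaled to a common library total. Where a library had no count of a fragment, its level may still have been up to that of 3 counts, which is 0.568 to 7.82 CPM over the libraries. The month 0 library of PA8001 was the shallowest and held 35 members. At month 15, PA8001 and PA8003 stood apart from the other animals: fragments of Gly-CCC, another glycine tRNA, made up 55.8% and 72.9% of their counts, against 24.7% to 39.97% in the other 6 libraries. At month 0 the same animals were also the highest, at 61.1% and 55.0%. In their month 15 libraries the 32 nt members also took the largest shares of member counts of all 40 libraries, 23.1% and 9.75%. Calls that rest on them are given with and without them. Over all fragments, leaving out these 2 libraries left 0 of 2591 tested fragments past the test below at month 15 against month 0, 0 against month 3, 99 against month 6, 16 against month 9 and 0 in the joint test of all months.

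The members form a ladder of exact prefixes. At each length 1 fragment, a prefix of the 36-base sequence above, was the most counted, and these 12 held 98.0% of all member counts. Each of the other 216 members differed from the ladder at exactly 1 base, and they held 1.97%. Such a difference is written with the ladder's base first, then the position and the member's base. All members have the same start because they were chosen by it, so the shares of 98.0% and 1.97% leave out differences within the start. Variants with 1 or 2 mismatches in the start, the other start included, are not members and held 1081587 counts. The other start held 694694 of these. Of the 228, 27 had a total count of 1 and 25 were counted in all 40 libraries.

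The 30 nt 5′-half was the most abundant member. Length 30 nt held 70.7% of member counts, and it was the most counted length in all 40 libraries, with 56.6% at the lowest, 72.3% at the median and 80.5% at the highest. Its last base is the last stem base before the anticodon loop. Length 28 nt came next in 37 of 40 libraries and held 12.6% over all of them. Length 27 nt held 6.84%, 29 nt 4.73%, 31 nt 2.66% and 32 nt 2.05%. Length 26 nt was a trough, at 0.131%, and was below 25 nt, at 0.288%, in 38 libraries and below 27 nt in all 40.

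Few 5′-halves reached into the anticodon itself. Length 32 nt, which ends on the base before the anticodon, exceeded 33 nt in all 40 libraries, and 33 nt and 34 nt held 0.0224% and 0.0304% of member counts. The ladder fragments of 35 and 36 nt had 34 and 9 counts in total and were found in 16 and 4 libraries. Just outside the member lengths, the most counted fragment of 37 nt had 31 counts and that of 24 nt had 1922.

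**Figure D1:**
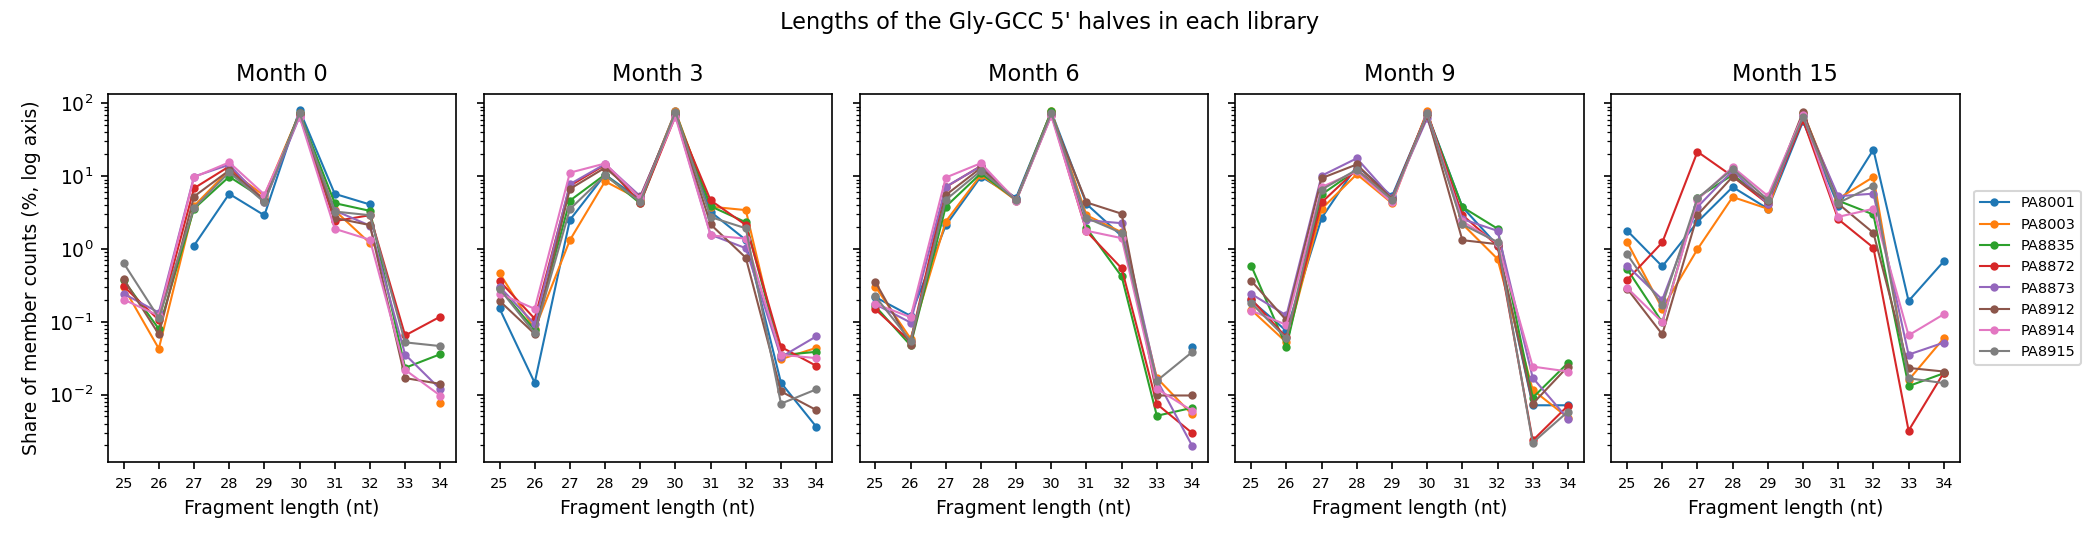
Share of member counts (%, log axis) at each length from 25 to 34 nt, with a panel for each month and a line for each of the 8 animals; shares of 0 are not drawn. Every line peaks at 30 nt and drops after 32 nt, and at month 15 the lines of PA8001 at 32 nt (23.1%) and PA8872 at 27 nt (21.7%) stand above the others.

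The levels of the ladder followed this order. The 30 nt 5′-half averaged 20745 CPM over the 40 libraries and the 28 nt 5′-half 3589 CPM. The 5′-halves of 27, 29, 31 and 32 nt averaged 1926, 1374, 802 and 683 CPM. The 5′-halves of 25 and 26 nt averaged 94.8 and 41.9 CPM, those of 34 and 33 nt 10.2 and 5.79 CPM, and those of 35 and 36 nt under 1 CPM. The ranges over libraries overlapped between neighbours in this order: for example, the 28 nt 5′-half ran from 190 to 8470 CPM and the 27 nt 5′-half from 36.5 to 10201 CPM.

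The share of counts held by the members differed between animals. PA8914 had the highest mean over its 5 draws, 4.71% with a range of 3.80% to 5.95%, and PA8001 the lowest, 1.16% with a range of 0.677% to 1.92%. Those ranges did not overlap, while the ranges of the other 6 animals overlapped one another. PA8001 was the lowest animal at months 0, 3, 6 and 9.

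By month, the share averaged 2.34% ± 1.14 at month 0, 2.69% ± 1.28 at month 3, 3.17% ± 1.45 at month 6, 2.79% ± 1.69 at month 9 and 3.01% ± 1.56 at month 15 (SD, n = 8 each). It was higher than at month 0 in 5 of 8 animals at month 3, 7 at month 6, 5 at month 9 and 6 at month 15. The mean within-animal difference was 0.83 ± 0.88 percentage points at month 6 and 0.67 ± 1.00 at month 15 (SD, n = 8). No test was run on this share.

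**Figure D2:**
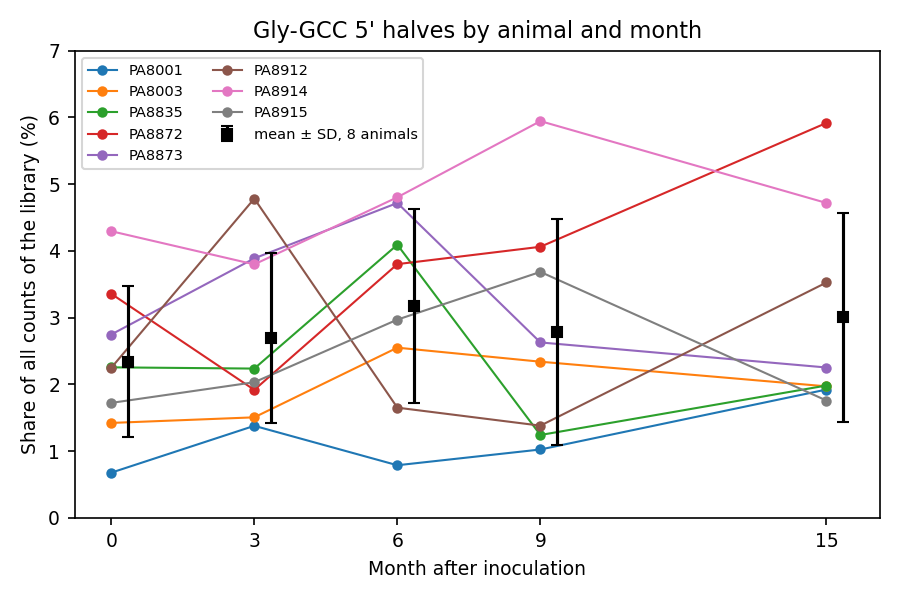
Members as a share of all counts of the library (%) against month, with a coloured line for each animal and black squares for the mean ± SD of the 8 animals. The line of PA8914 stays at or above 3.80% and that of PA8001 stays at or below 1.92%, and the monthly means lie between 2.34% and 3.17%.

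Fragment by fragment, 54 members had counts high enough to be tested, among them the ladder from 25 to 34 nt, and 174 members did not. By length, 16 tested members had 30 nt, 11 had 28 nt, 7 had 27 nt, and 6 each had 29 nt and 31 nt. The tested members are those with enough counts, so their medians do not stand for all 228. The comparisons with month 0 ask how each animal's fragments differed from before the inoculation.

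No member passed the test at months 3, 6 or 9 against month 0. The test was edgeR's quasi-likelihood test with the animal as a block, adjusted over 2447 fragments, and 0% of fragments passed in each of these comparisons. At an unadjusted p under 0.05 the members numbered 1 of 54 at month 3, 19 at month 6 and 1 at month 9, where the shares of all fragments were 2.98%, 12.7% and 8.21%. DESeq2 and limma-voom also called 0 members in these 3 comparisons. Of all 2447 fragments, DESeq2 called 17 at month 6 and 0 at months 3 and 9, and limma-voom called 0 in each.

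The 30 nt 5′-half, the most abundant member, had a lowest, median and highest level of 2627, 17237 and 35973 CPM at month 0 and of 9606, 15593 and 40394 CPM at month 3. At month 6 these were 3462, 27860 and 36891 CPM, at month 9 they were 5417, 20037 and 50578 CPM, and at month 15 they were 7990, 19535 and 32617 CPM. The months overlapped throughout, and PA8001 held the lowest value at months 0, 3 and 6. The log2 changes of this 5′-half against month 0 were 0.48 ± 0.38 at month 3, 0.63 ± 0.38 at month 6, 0.53 ± 0.39 at month 9 and 0.40 ± 0.38 at month 15 (SE), with adjusted p of 0.999, 0.512, 0.656 and 0.538.

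The tested members of 27 to 30 nt had positive log2 values at month 6 against month 0 in 40 of 40 cases. Their median was 0.65, and none passed the test. The range of 27 to 30 nt was not among the planned groups. Of all 54 tested members, 48 had positive values. The single tested members of 25, 33 and 34 nt were negative, as were 3 of 4 at 32 nt. The 27 to 30 nt members were considered as a group because of their lengths only. The members share 1 sequence and the same libraries, so they are not independent of one another. Of all 2447 fragments, 1256 had positive values in this comparison. So did 135 of 198 variants within 1 or 2 mismatches of the start. These variants include the other start, of which 2 of 23 had positive values. Of Gly-CCC 18 of 140 did. The median of the 27 to 30 nt members was 0.39 at month 3, 0.37 at month 9 and 0.19 at month 15. Over all 54 tested members the median was 0.32, 0.62, 0.32 and 0.29 at months 3, 6, 9 and 15, beside 0.10, 0.01, 0.06 and 0.05 over all 2447 fragments. The smallest p at months 3 and 6 belonged to tRF-30-P4R8YP9LOZ4V, the 30 nt member with A23C, at log2 0.70 ± 0.29 and 0.92 ± 0.29 with adjusted p of 0.999 and 0.303. At month 9 it belonged to tRF-28-P4R8YP9LPND5, the 28 nt member with A22C, at 0.69 ± 0.32 with an adjusted p of 0.582.

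At month 15 against month 0, 2.37% of all fragments passed, 2.21% higher and 0.163% lower, and 0 of the 54 members did. At an unadjusted p under 0.05 there were 8 members, and 20.8% of all fragments. DESeq2 called 3 members and 151 of all 2447 fragments, and limma-voom called 0 members and 45 fragments. The 26 nt 5′-half came nearest in the edgeR fit, at a log2 change of 2.09 ± 0.60 with an adjusted p of 0.0527. The 5′-halves of 25 and 32 nt had 1.60 ± 0.47 and 1.69 ± 0.53, with adjusted p of 0.0554 and 0.0808, and each of these 3 passed with DESeq2.

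Set against months 3, 6 and 9, the 5′-halves of 25, 26 and 32 nt passed as higher at month 15, and against months 6 and 9 so did that of 34 nt. At month 15 against month 3, 3 of 54 members passed, all higher, beside 11.1% of all fragments, 7.19% higher and 3.92% lower. Against month 6, 6 members passed as higher and 3 as lower, beside 26.6% of all fragments, 17% higher and 9.52% lower; at an unadjusted p under 0.05 there were 18 members and 41.1% of all fragments. Against month 9, 7 members passed, all higher, beside 30.6% of all fragments and 18.2% higher. As a share of the 54 members these counts are 5.56%, 16.7% and 13.0%, each below the share of all fragments. These 3 comparisons share the month 15 libraries, so their calls are not independent of one another. With PA8001 and PA8003 left out at month 15, 0 of 56 tested members passed in each of the 3. Of all 2591 fragments, 0, 99 and 16 then passed against months 3, 6 and 9.

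The 32 nt 5′-half, which ends on the last base before the anticodon, had a lowest, median and highest level of 478, 932 and 4147 CPM at month 15. The same values were 164, 430 and 636 CPM at month 3, 68.1, 417 and 981 CPM at month 6, 142, 292 and 832 CPM at month 9 and 130, 573 and 863 CPM at month 0. At month 15 the libraries of PA8003 and PA8001, at 4147 and 4041 CPM, and then PA8914, at 1669 CPM, lay above all libraries of the other months, and the other 5 overlapped them. PA8003 had 7307 of 3847831 counts and PA8001 8349 of 1914341, so without the TMM factor PA8001 stood above PA8003. The log2 change of the 32 nt 5′-half at month 15 was 2.01 ± 0.52 against month 3, 2.05 ± 0.52 against month 6 and 2.38 ± 0.52 against month 9 (SE; adjusted p of 0.0281, 0.00696 and 0.00654), and it was higher in 7, 7 and 8 of 8 animals.

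With PA8001 and PA8003 left out at month 15 the log2 changes of tRF-32-P4R8YP9LON4V3, the 32 nt 5′-half, were 0.66, 0.76 and 1.01, with adjusted p of 0.321, 0.160 and 0.0840. The call against month 3 was also lost without PA8003, PA8873 or PA8914, at adjusted p of 0.0630 to 0.0910.

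Members of this length with 1 mismatch also passed. The 32 nt members with T27C (tRF-32-P4R8YP9LONKV3) and T32C (tRF-32-P4R8YP9LON4VJ) rose at month 15 against month 6, by 1.75 ± 0.52 and 1.69 ± 0.50, and against month 9, by 2.15 ± 0.53 and 1.53 ± 0.50 on the log2 scale (SE; adjusted p of 0.0102 to 0.0216). The member with T25C (tRF-32-P4R8YP9LOM4V3) rose against month 9 by 2.53 ± 0.69 (adjusted p of 0.0122). These are scarce: at month 15 they averaged 5.28, 4.42 and 4.16 CPM, and at month 9 they averaged 1.09, 1.53 and 0.761 CPM. They have the length of the 32 nt 5′-half and differ from it at 1 base, so they are no independent evidence. The T27C call against month 6 was lost without PA8001 (adjusted p of 0.0505). With no filter on low counts, the T27C and T32C calls against month 6 and the T32C call against month 9 were also lost. The T32C call against month 9 was lost without PA8003 or PA8915 (0.0641 and 0.0658), and the T25C call without PA8003 (0.0548). With PA8001 and PA8003 left out at month 15, the T27C member had 1.00 and 1.47 and the T32C member 1.47 and 1.29 against months 6 and 9, and the T25C member 1.94 against month 9, with adjusted p of 0.0840 to 0.214.

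The 34 nt 5′-half, which takes in the first 2 anticodon bases, had a lowest, median and highest level of 1.83, 8.93 and 117 CPM at month 15, against 0.593, 1.96 and 11.1 CPM at month 6 and 0.295, 2.00 and 14.4 CPM at month 9. The libraries of PA8001 (117 CPM), PA8914 (58.6 CPM) and PA8003 (25.0 CPM) lay above every library of months 6 and 9, and the other 5 overlapped them. Its log2 change at month 15 was 2.84 ± 0.89 against month 6 and 2.92 ± 0.85 against month 9 (SE), with adjusted p of 0.0179 and 0.0137. Against month 3 the log2 change was 1.44 ± 0.85, with an adjusted p of 0.230. At most 241 counts in 1 library stand behind these levels.

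With PA8001 and PA8003 left out at month 15, tRF-34-P4R8YP9LON4VHM, the 34 nt 5′-half, had log2 changes of 1.20 and 1.58 against months 6 and 9, with adjusted p of 0.324 and 0.158. Its call against month 6 was lost without PA8001, PA8003 or PA8914 (adjusted p of 0.0571 to 0.0693) and its call against month 9 without PA8003 (0.0588). The 33 nt 5′-half, tRF-33-P4R8YP9LON4VDP, which takes in the first anticodon base, did not pass: its log2 change at month 15 was 0.62 ± 0.72 against month 3, 1.27 ± 0.75 against month 6 and 1.67 ± 0.73 against month 9 (SE; adjusted p of 0.554, 0.195 and 0.0777).

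At the short end, the 25 nt 5′-half, which ends before the anticodon stem begins, had a lowest, median and highest level of 86.8, 121 and 533 CPM at month 15. At month 3 these values were 19.3, 76.0 and 135 CPM, at month 6 they were 9.62, 71.6 and 101 CPM, and at month 9 they were 28.6, 53.6 and 99.2 CPM. PA8003 and PA8001 were the highest at month 15, at 533 and 314 CPM, and in this month all 8 animals were above their own month 0 value. PA8003 had 939 of 3847831 counts and PA8001 649 of 1914341, so without the TMM factor PA8001 stood above PA8003 here too. Its log2 change at month 15 was 1.49 ± 0.46 against month 3, 1.77 ± 0.46 against month 6 and 1.83 ± 0.46 against month 9 (SE; adjusted p of 0.0392, 0.00784 and 0.0105), and it was higher in 6, 8 and 8 of 8 animals.

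The 26 nt 5′-half had a lowest, median and highest level of 16.1, 40.6 and 580 CPM at month 15. At months 3, 6 and 9 the median was 20.6, 20.7 and 20.5 CPM and the highest library had 69.7, 62.8 and 63.4 CPM. PA8872 was the high library at month 15, followed by PA8001 at 102 CPM and PA8003 at 65.3 CPM. PA8003 lay above every library of months 6 and 9 but not of month 3. The remaining libraries stayed within the range of each of these months. The log2 change at month 15 was 1.91 ± 0.60 against month 3, 2.00 ± 0.59 against month 6 and 2.08 ± 0.58 against month 9 (SE; adjusted p of 0.0404, 0.0135 and 0.0124), and it was higher in 5, 5 and 6 of 8 animals.

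With PA8001 and PA8003 left out at month 15, tRF-25-P4R8YP9LON, the 25 nt 5′-half, had log2 changes of 0.40, 0.67 and 0.66 against months 3, 6 and 9 (adjusted p of 0.523, 0.200 and 0.189). For tRF-26-P4R8YP9LOND, the 26 nt 5′-half, they were 1.20, 1.22 and 1.24 (adjusted p of 0.308, 0.211 and 0.188). Both calls against month 3 were lost on leaving out PA8001, PA8003, PA8872, PA8873, PA8914 or PA8915, at adjusted p of 0.0527 to 0.150. The 25 nt call against month 3 was also lost with limma-voom (0.0617), with the RLE size factors that DESeq2 uses (0.0518), with no filter on low counts (0.191) and without the animal block (0.0621), and it was kept under 6 of 17 alternatives. The 26 nt call against month 3 was also lost with limma-voom (0.0712) and without the animal block (0.0528), and it was kept under 8 of 17. The 26 nt call was lost against month 6 without PA8001 or PA8872 (0.0540 and 0.0993), and against month 9 without PA8872 (0.0585). The log2 changes of tRF-26-P4R8YP9LOND without PA8872 were 1.19, 1.28 and 1.40 against months 3, 6 and 9.

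No 5′-half in the middle of the ladder passed. At month 15 against months 3, 6 and 9 the log2 change of the 27 to 31 nt 5′-halves ran from -0.50 for 28 nt against month 6 to 0.59 for 31 nt against month 3, with standard errors of 0.34 to 0.51, and none passed. For the 30 nt 5′-half it was -0.08 ± 0.38 against month 3, -0.23 ± 0.39 against month 6 and -0.13 ± 0.38 against month 9 (SE), while library totals without TMM scaling turned the first and the last of these to 0.0084 and 0.054.

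**Figure D3:**
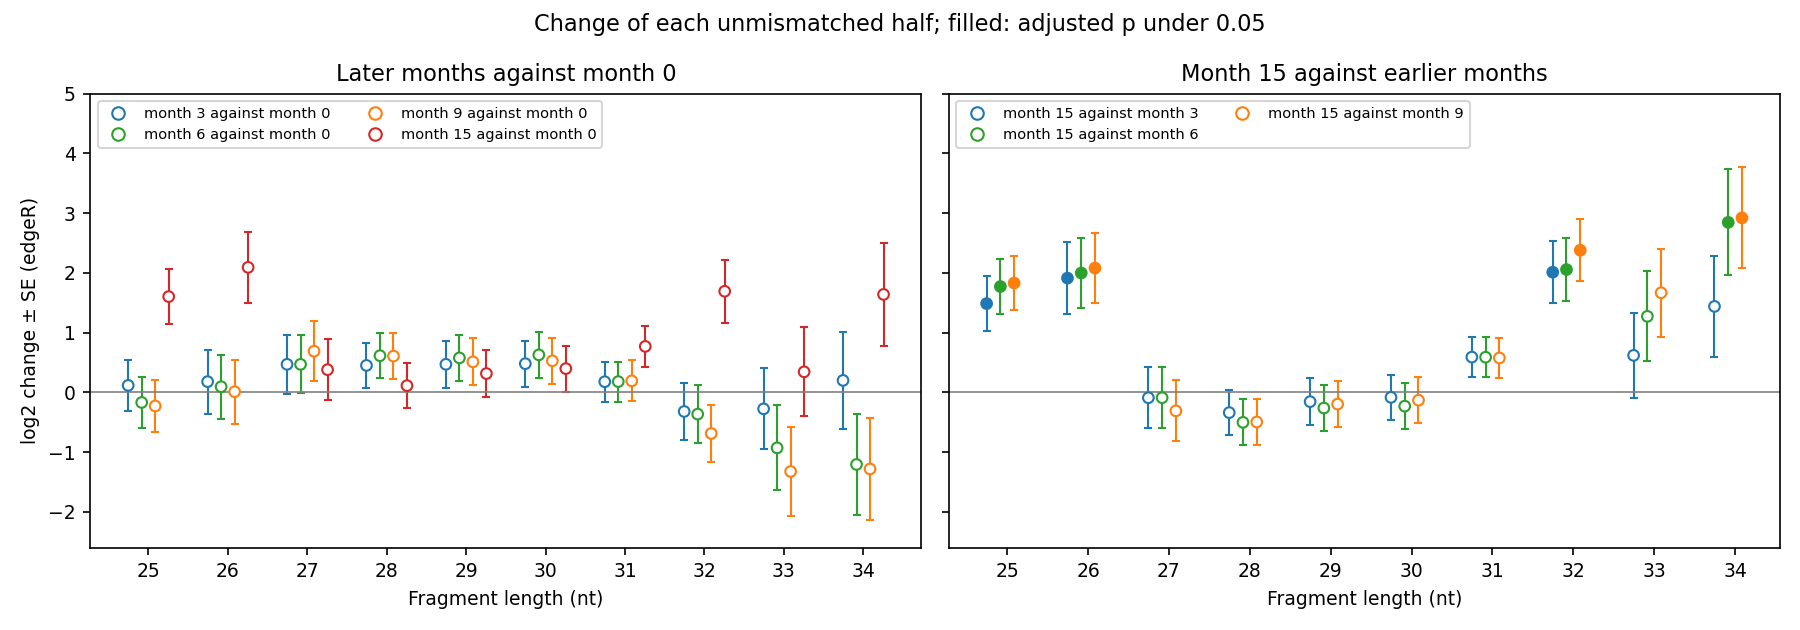
Log2 change ± SE (edgeR) of each ladder 5′-half from 25 to 34 nt, for later months against month 0 (left) and month 15 against months 3, 6 and 9 (right); filled points have an adjusted p under 0.05. The filled points sit at 25, 26, 32 and 34 nt in the right panel, and none of the points at 27 to 31 nt is filled.

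**Figure D4:**
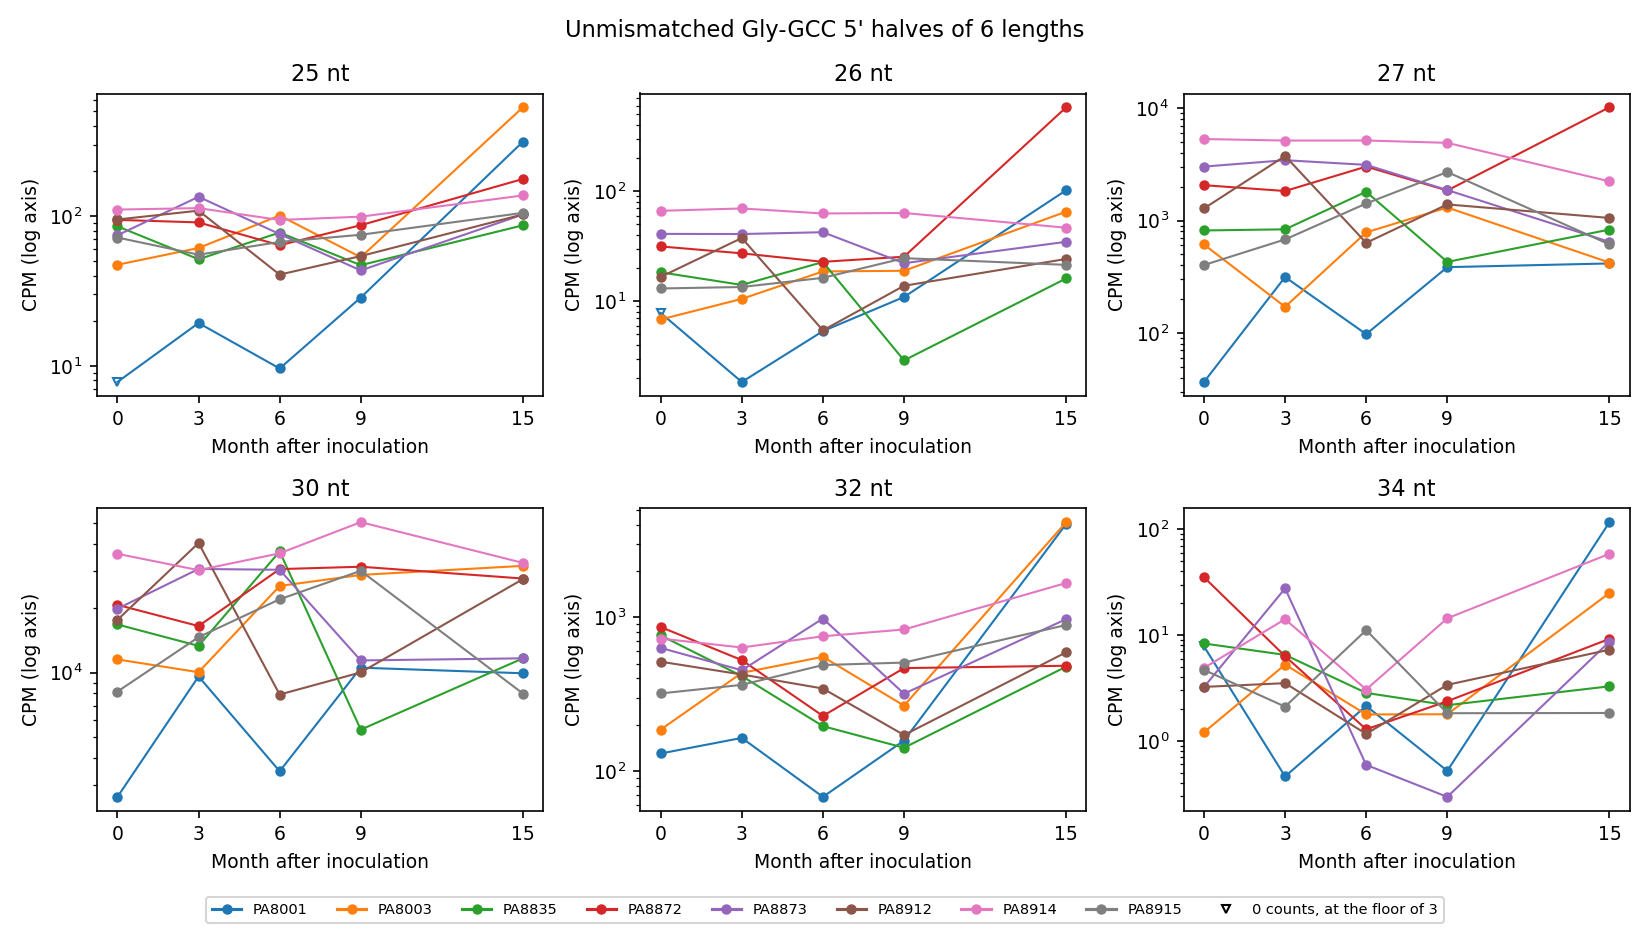
CPM (log axis) of 6 ladder 5′-halves against month, with a line for each animal; open triangles stand for 0 counts, drawn at the floor of 3 counts. At month 15 PA8001 and PA8003 rise above the rest at 25 and 32 nt, PA8872 at 26 and 27 nt, and the 30 nt lines overlap across all months.

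The 3 members that passed as lower at month 15 against month 6 were 28 nt fragments with 1 mismatch. They carried T27C (tRF-28-P4R8YP9LONDJ), A23G (tRF-28-P4R8YP9L5ND5) and A22G (tRF-28-P4R8YP9L6ND5). The T27C member had a lowest, median and highest level of 3.39, 16.4 and 26.8 CPM at month 15, against 4.63, 26.4 and 43.7 CPM at month 6, and it was lower in 8 of 8 animals. The log2 changes of the 3 were -0.73 ± 0.28, -0.85 ± 0.30 and -0.80 ± 0.30 (SE; adjusted p of 0.0451, 0.0340 and 0.0478). The unmismatched 28 nt 5′-half had -0.50 ± 0.39 in this comparison and did not pass.

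These 3 calls were lost on leaving out most single animals. For the T27C member tRF-28-P4R8YP9LONDJ they were PA8001, PA8003, PA8872, PA8873, PA8914 and PA8835, for tRF-28-P4R8YP9L5ND5 PA8001, PA8003, PA8873, PA8914, PA8915 and PA8835, and for tRF-28-P4R8YP9L6ND5 all but PA8912, at adjusted p of 0.0505 to 0.175. The log2 changes with PA8001 and PA8003 left out at month 15 were -0.73, -0.65 and -0.60, with adjusted p of 0.133, 0.187 and 0.229. Members passed as lower against month 6 in some settings only. None did with library totals alone, with no filter on low counts, with a minimum count of 50 or without the animal block. At a minimum count of 50 the T27C member was tested, but the A23G and A22G members were not. As lower, limma-voom called 2 members and DESeq2 10.

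In the joint test of all months, 6 members passed, 11.1% of the 54, beside 16.2% of all fragments. They were the 5′-halves of 25, 26, 32 and 34 nt and the 32 nt members with T27C and T32C, and the smallest adjusted p was 0.0131, for the 32 nt 5′-half. No member passed this test, or any of the 7 pairwise comparisons, with PA8001 and PA8003 left out at month 15, and in the joint test 0 of 2591 fragments of any kind then passed. Without PA8003 alone, 0 members passed the joint test either: the 32 nt 5′-half then had an adjusted p of 0.0741 and the 25 nt 5′-half 0.104. The 26 nt 5′-half was also lost without PA8001 or PA8872, the T27C member without PA8001 or PA8873, the 34 nt 5′-half without any of PA8001, PA8872, PA8873, PA8912 and PA8914, and the T32C member on leaving out any one of the 8 animals, at adjusted p of 0.0513 to 0.208.

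The length make-up of the members at month 15 differed between animals. The 32 nt length held 1.04%, 4.66% and 23.1% of member counts at the lowest, median and highest library, against 1.20%, 2.52% and 4.09% at month 0. PA8001, PA8003, PA8915 and PA8873 were above the month 0 range, at 23.1%, 9.75%, 7.40% and 5.76%. The share was higher than at month 0 in 5 of 8 animals, and at month 9 it was lower than at month 0 in 8 of 8. The mean length of a member was 29.7 ± 0.317 nt at month 15 and 29.6 ± 0.183 nt at month 0 (SD, n = 8 each), with the longest mean, 30.2 nt, in PA8001 and the shortest, 29.1 nt, in PA8872, both at month 15.

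Among Gly-CCC fragments of 25 to 36 nt, 32 nt held 18.1%, 30.04% and 67.6% at the lowest, median and highest library of month 15, against 7.60%, 18.1% and 43.2% at month 0. PA8003 was the highest at month 15 and PA8001 at month 0. Of 140 tested Gly-CCC fragments, 39 rose and 16 fell at month 15 against month 9. The median log2 change was -0.03, beside -0.04 over all fragments tested, of which 18.2% passed as higher and 12.4% as lower. With PA8001 and PA8003 left out at month 15, 1 of 144 Gly-CCC fragments rose and 0 fell in that comparison. The part of these fragments in the members' values was not tested. The 32 nt fragment of the other Gly-GCC start passed as well, with log2 changes at month 15 of 1.62 ± 0.42 against month 3, 1.96 ± 0.42 against month 6 and 1.97 ± 0.42 against month 9 (SE; adjusted p of 0.0281, 0.00494 and 0.00545). Of 23 tested fragments of that start, the only other to pass was the 25 nt one, by 1.21 ± 0.31 against month 6 and 1.12 ± 0.31 against month 9 (adjusted p of 0.00689 and 0.0124). Leaving out the same pair of libraries, 0 fragments of that start passed against months 3 and 9 and 1 against month 6, and against month 3 no fragment of any kind passed without PA8873 or without PA8914 either.

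Shorter fragments with the members' start had 24 entries of 20 to 24 nt, of which 4 were tested. All 4 rose at month 15 against months 6 and 9, with medians of 1.76 and 1.94, and 0 passed against month 0, where the median was 1.46. Of 71 fragments of 37 nt and more with this start, the single tested one, of 52 nt, rose against month 9, by 2.05. Of 1068 variants within 1 or 2 mismatches of the start, the other start included, 198 were tested. Of these, 15 rose and 0 fell at month 15 against month 9, with a median of 0.08. Of 294 fragments from inside the tRNA that start after base 3, 20 were tested, and 5 rose and 0 fell in that comparison, with a median of 0.23. Of all fragments, 18.2% passed as higher and 12.4% as lower against month 9. Against month 6 these shares were 17% and 9.52%, and against month 0 2.37% passed in either direction. None of the fragments in these 4 groups passed against month 9 when PA8001 and PA8003 were left out at month 15. Against month 6, 2 of 23 fragments from inside the tRNA and 1 of 204 variants then passed, all higher. None of the 20 to 24 nt fragments or of those of 37 nt and more did.

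The start of the members and the other start, which differ by G5T, were in unequal proportions at different lengths. From 25 to 36 nt the other start had 177 fragments and 694694 counts. At 30 nt the members' fragment had 2797136 counts and the other 541843, a ratio of 5.16, and the members' fragment was higher in 40 of 40 libraries. The ratio was 25.3 at 27 nt, with 6.205 at the lowest library, 8.96 at 28 nt, 8.04 at 32 nt and 2.26 at 33 nt. Fragments of up to 32 nt end before the anticodon, so at those lengths it was not read for either start.

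At 52 nt, the most counted length over 36 nt, the order turned round. There the fragment with the members' start had 1640 counts and the other 2710, a ratio of 0.605, and the other start was higher in 36 of 40 libraries. These are the 52 nt fragments, with the anticodon in capitals.
tRF-52-P4R8YP9LON4VN1EH6KK8N: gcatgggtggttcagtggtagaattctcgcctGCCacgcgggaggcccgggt
tRF-52-PNR8YP9LON4VN1EH6KK8N: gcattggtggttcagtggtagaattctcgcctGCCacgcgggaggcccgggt

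Summed over each animal's draws, the ratio averaged 4.99 ± 1.45 at 30 nt and 0.608 ± 0.111 at 52 nt (SD, n = 8). The animals ran from 1.96 in PA8001 to 7.02 in PA8872 at 30 nt and from 0.411 to 0.753 at 52 nt, so the ranges did not overlap. On the log2 scale the difference was 2.99 ± 0.56 (SD), in the same direction in 8 of 8 animals. These lengths were chosen after the ratios had been seen, so no test is given. Toward the other end of the tRNA, fragments that hold the bases pairing with the 5′ end split the other way. Of these, 25 counts had the partner of the members' start and 3011 that of the other start. They were picked by these end bases and a shared stretch before them, without reading an anticodon. Whether all of them come from Gly-GCC was therefore not shown.

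**Figure D5:**
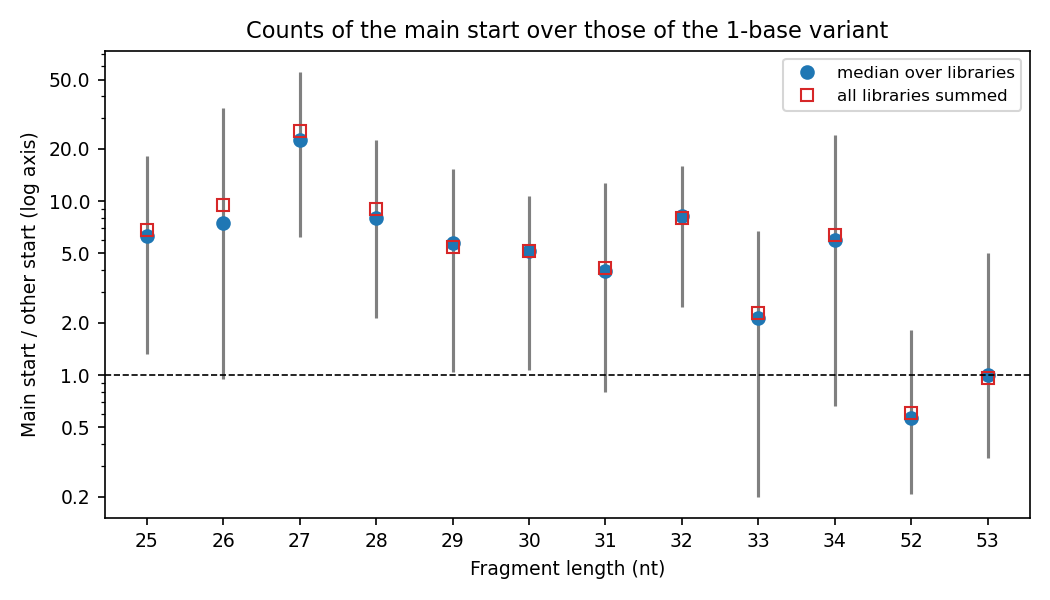
Ratio of counts, members' start over the other start (log axis), at each length where at least 20 libraries hold both; dots are medians over libraries, squares the ratio of summed counts and bars the range over libraries. The ratio peaks at 27 nt (25.3 summed), is 5.16 at 30 nt, and is below 1 at 52 nt (0.605).

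Over all lengths from 25 to 36 nt, the ratio of the members to the other start averaged 4.39 ± 1.38 at month 0, 6.11 ± 1.95 at month 3, 7.93 ± 3.80 at month 6, 6.61 ± 2.91 at month 9 and 5.26 ± 2.09 at month 15 (SD, n = 8 each). It was higher than at month 0 in 6, 6, 7 and 6 of 8 animals. The lowest library was PA8001 at month 9, at 1.26, and the highest PA8914 at month 6, at 12.8. In the fit, the 30 nt fragment of the other start had log2 changes of -0.05, -0.33, 0.06 and 0.05 against month 0 at months 3, 6, 9 and 15, and none passed. Whether the starts changed differently was not tested.

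The length profile differed between the starts as well. At 27 nt the members had 6.84% of their counts and the other start 1.57%, at 28 nt 12.6% and 8.14%, and at 30 nt 70.7% and 79.6%. Of the fragments counted here as Gly-CCC, the most counted has a different 5′ sequence. Together they had 33.9% at 27 nt, 1.85% at 28 nt, 24.3% at 29 nt, 19.2% at 30 nt and 19.6% at 32 nt.

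Among the 1-mismatch members, at 30 nt all 30 single substitutions possible at bases 21 to 30 were seen. The most counted was T27C (tRF-30-P4R8YP9LONKV), with 10405 counts or 0.372% of the unchanged 30 nt 5′-half, followed by T25C at 0.232%, A22G at 0.231%, G29A at 0.208% and A23G at 0.175%. Transitions, the changes within purines or within pyrimidines, made up 83.0% of these counts.

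The 30 nt fragment of the other start held the same substitutions in nearly the same proportions. T27C was at 0.373% there and transitions at 83.4%, and the rank order over the 30 substitutions had a Spearman rho of 0.99. Both sets come from the same libraries, so this is a description across substitutions and not over independent samples. The source of the substitutions was not tested.

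The 5 most counted of these members, which are the 30 nt ones named above, had mean levels of 31.7 to 60.7 CPM at month 0. Their log2 changes at month 6 against month 0 were between 0.54 and 0.80, with adjusted p of 0.303 to 0.461, and none passed in any comparison. The T27C member was higher at month 6 than at month 0 in 8 of 8 animals, at a median of 101 CPM, against 59.5 CPM at month 0. The 1-mismatch share of member counts ran from 1.07% to 7.06% over the libraries and was highest in the shallow month 0 library of PA8001.

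The last base was read differently at some lengths. At 31 nt 1.61% of counts (95% Wilson interval 1.54% to 1.69%) ended in another base than the sequence gives, and 1574 of those 1729 counts ended in A. At 33 nt the share was 11.96% (10.0% to 14.2%), with 63 counts ending in T and 42 in A. At 30 nt it was 0.108% (0.104% to 0.112%) and at 28 nt 0.0914%. The other start had 1.09% at 31 nt and 4.38% (2.72% to 7.00%) at 33 nt, whose interval lies below that of the members. Intervals cover counting error only. With those last bases counted, the members of 33 to 36 nt matched the anticodon as far as they reached it in 94.2% of their 2180 counts, with a mean over 39 libraries of 91.6% ± 9.47 (SD), below the 99.5% of fragments that read through it.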

How the data were processed

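The deposited table holds the authors' counts per distinct tRNA fragment sequence in 40 serum libraries. Per the labels' protocols, adapters were ligated sequentially to RNA from 0.5 mL of serum and a molecular identifier was assigned at cDNA synthesis. The submitters' processing notes list R 4.5.0, limma and edgeR without saying what each was used for. No aligner or build, and no collapsing of counts by identifier, is given in the sources used here. Counts are therefore treated as read counts, and intervals cover counting error only.

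Of 60201 entries, 1614 had an unread base and no identifier and held 0.0805% of the counts; they were left out. Library totals ran from 198840 to 6245450. No library pair held identical values, and 0 columns were without a sample.

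For all fragments, edgeR's quasi-likelihood test (version 4.0.16, R 4.3.3) was run on the counts with TMM scaling, a minimum count of 10 in the filter, the animal as a block and the month as a factor, two-sided, with Benjamini-Hochberg adjustment over 2447 fragments and a threshold of 0.05. CPM use TMM-scaled totals. The same 8 animals were drawn at every month, per the labels, so the animal numbers pair the libraries: library deviations correlated at 0.187 on average within an animal and at -0.0247 between animals. Alternatives were DESeq2 1.42.0, limma-voom (limma 3.58.1), other scalings and filters, no block, and leaving out each animal or the libraries named in the text. Summaries used Python 3.11.15, pandas 2.3.3 and scipy 1.17.1.

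The members and lists were chosen with earlier results of these data known. Named with values are the most counted member at each length, the 5 most counted others, and, in each comparison, up to 5 members per direction that passed, or the one with the smallest p where none did. No genome came with the data, and names of tRNA genes were taken from RefSeq.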

Additional observations from a re-analysis of the deposited data

Results flagged for a closer look

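In 9 of 61 groups of 8 values, the highest or lowest value lay far from its nearest neighbour relative to the group's range (a gap over 0.526 of the range). For independent groups of normally distributed values, chance gives about 1 in 20. The groups here share animals and libraries, and the CPM were not on a log scale, so that rate does not apply to them. PA8872 held the highest values at month 15 for the 26 nt 5′-half, 580 CPM, and the 27 nt 5′-half, 10201 CPM, and at month 0 for the 34 nt 5′-half, 35.2 CPM. PA8914 held the highest values at month 9 for the 26 nt 5′-half, 63.4 CPM, the 33 nt 5′-half, 15.5 CPM, and the 34 nt 5′-half, 14.4 CPM, and at month 0 for the 29 nt 5′-half, 3063 CPM. PA8915 held the highest value of the 34 nt 5′-half at month 6, 11.1 CPM. PA8001 had the smallest difference between the log2 ratio of the starts at 30 nt and at 52 nt, 1.69.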

How the results depend on the processing

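The number of members called at months 3, 6 and 9 against month 0 was 0 under every alternative. Of all fragments, DESeq2 called 17 of 2447 at month 6. With no filter on low counts, 8 of 58587 were called at month 6 and 8 at month 9. At month 15 against month 0 it was 3 with DESeq2, where 151 of all 2447 fragments were called, and 0 to 3 on leaving out 1 animal. Against month 3 it was 5 with DESeq2 (518 of all fragments) and 0 to 3 on leaving out 1 animal. Against month 6 it was 16 with DESeq2, 6 higher and 10 lower (838 of all fragments), 3 with a minimum count of 50 (334 of 1094 fragments) and 4 to 13 on leaving out 1 animal. Against month 9 it was 3 with a minimum count of 50 (471 of 1094) and 4 to 8 on leaving out 1 animal. In the joint test it was 10 with DESeq2 (657 of 2447), 3 with a minimum count of 50 (253 of 1094) and 0 to 5 on leaving out 1 animal. A minimum count of 50 left 22 members to test. With PA8001 and PA8003 left out at month 15 it was 0 in all of these, beside 0, 0, 99, 16 and 0 of all 2591 fragments against months 0, 3, 6 and 9 and in the joint test. Without the replicate block, 1 member passed at month 15 against month 0 (69 of all fragments), 1 against month 3 (181), 6 against month 6 (536), 7 against month 9 (707) and 5 in the joint test (330), with none lower in the pairwise comparisons. The cause of these changes was not tested.

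Values near 0 changed sign, none of them past the test. At month 3 against month 0, the 25 nt 5′-half was at -0.010 with no filter and -0.058 without the month 0 library of PA8001. The 26 nt 5′-half at month 6 was at -0.026 with limma-voom, -0.019 without the block and -0.013 without that library. At month 9 it was at -0.091 with limma-voom, -0.12 with library totals, -0.0095 with DESeq2 size factors, -0.029 with no filter, -0.031 with a minimum count of 50, -0.12 without the block and -0.11 without that library. The 31 nt 5′-half at month 9 was at -0.0063 with library totals. At month 15 against month 0, the 28 nt 5′-half was at -0.099 with no filter, -0.14 without the block, -0.033 with PA8001 and PA8003 left out at month 15 and -0.090 without the month 0 library of PA8001, and the 33 nt 5′-half at -0.090 with limma-voom and -0.45 without the pair of month 15 libraries. Against month 3, the 33 nt 5′-half was at -0.036 with limma-voom and -0.26 without that pair, the 27 nt 5′-half at 0.095 with library totals and 0.020 without the block, and the 30 nt 5′-half at 0.0084 with library totals. Against month 6, the 27 nt 5′-half was at 0.046 with library totals, 0.031 with a minimum count of 50 and 0.033 without the block. Against month 9, it was at 0.14 without the block, and with library totals the 29 nt 5′-half was at 0.017 and the 30 nt 5′-half at 0.054. Library totals moved the median of all fragments by at most 0.13.

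Leaving out 1 animal gave ranges across 0 as follows. At month 3 against month 0 they were -0.027 to 0.25 for 25 nt, -0.064 to 0.29 for 26 nt, -0.0024 to 0.31 for 31 nt, -0.44 to 0.015 for 33 nt and -0.61 to 0.97 for 34 nt. At month 6 they were -0.20 to 0.26 for 26 nt and -0.00082 to 0.25 for 31 nt, and at month 9 -0.25 to 0.28 and -0.0020 to 0.45. At month 15 against month 0 they were -0.12 to 0.69 for 27 nt, -0.13 to 0.26 for 28 nt and -0.39 to 0.92 for 33 nt. Against month 3 they were -0.62 to 0.27 for 27 nt, -0.30 to 0.052 for 29 nt, -0.27 to 0.091 for 30 nt and -0.065 to 0.96 for 33 nt. Against month 6 they were -0.58 to 0.12 for 27 nt, -0.46 to 0.0013 for 29 nt and -0.45 to 0.041 for 30 nt. Against month 9 they were -0.86 to 0.033 for 27 nt, -0.36 to 0.051 for 29 nt and -0.33 to 0.13 for 30 nt. The difference of month 15 minus month 0 in the members' share and that of the start ratio between 30 and 52 nt kept their sign under the alternatives run for them. The difference in mean length, 0.097 nt, was -0.029 nt with PA8001 and PA8003 left out at month 15. In the shallowest library, of 198840 counts, 1 count was 2.61 CPM, and a member without a count may have had a level of up to 7.82 CPM.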
